A study of Mus musculus with 3 samples.

Results

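The *Bcl2* family apoptosis genes examined here are 10 genes chosen by name, and all 10 had uniquely mapped reads among the 17633 genes that any of the 3 libraries detected. They comprise 3 anti-apoptotic genes (*Bcl2*, *Bcl2l1* and *Mcl1*), 2 effectors (*Bax* and *Bak1*) and 5 BH3-only genes (*Bcl2l11*, *Bbc3*, *Pmaip1*, *Bid* and *Bad*). Their expression was compared between 3 germ layers, endoderm, mesoderm and epiblast, of ICR mouse embryos at E7.5, none of which carried a labelled mutation or treatment. According to the study's methods, the embryonic region was digested with trypsin and pancreatin in the cold, the layers were pulled apart by hand, and RNA was pooled over many embryos. The epiblast as dissected held the neuroectoderm and the primitive streak. There is 1 library per germ layer, so no difference below has a replicate check, and a different number of expressing cells cannot be told apart from a different amount of RNA per cell.

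Proteins of this family set the threshold for mitochondrial apoptosis. BAX and BAK1 permeabilise the outer mitochondrial membrane, the anti-apoptotic proteins bind and hold them in check, and the BH3-only proteins either neutralise the anti-apoptotic proteins or activate BAX and BAK1 directly. Cytochrome *c* then leaves the mitochondria and caspases are activated by way of APAF1. Epiblast cells of the early post-implantation embryo are known to be sensitive to apoptosis, for example after DNA damage.

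The feature that the family shares is the BH3 region, a short helix by which its members bind each other. In the longest GENCODE M21 coding sequence of each gene, a BH3 core was searched for as a leucine, any 2 residues, an isoleucine, methionine, valine or alanine, then a glycine, alanine or serine, and an aspartate. All 10 members held it, against 8.93% of 21760 coding genes. Of 16 other family genes 2 held it, *Bmf* and *Bik*, which says only that the others lack this exact order. The pattern was written from known BH3 regions, so the counts are a description. *Pmaip1* held the pattern at 2 places, from residues 27 and 78, and is not shown. The 27 bases (9 codons) from the leucine are shown for the other 9 members because they are what the 3 roles have in common. The codons of the leucine, of the small residue and of the aspartate are in capitals.
*Bcl2*: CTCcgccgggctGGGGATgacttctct
*Bcl2l1*: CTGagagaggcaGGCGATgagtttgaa
*Mcl1*: CTGcggcgcgtgGGCGACggcgtgcag
*Bax*: CTCcggcgaattGGAGATgaactggac
*Bak1*: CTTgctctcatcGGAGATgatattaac
*Bcl2l11*: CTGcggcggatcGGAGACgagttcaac
*Bbc3*: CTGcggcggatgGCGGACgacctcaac
*Bid*: CTCgcccaaataGGCGATgagatggac
*Bad*: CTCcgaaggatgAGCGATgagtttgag

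In 7 of these 9 the residue before the aspartate was glycine, and it was alanine in *Bbc3* and serine in *Bad*. In GRCm38 each stretch lies within 1 coding exon. Those of the anti-apoptotic genes are at chr1:106712575-106712601 on the minus strand for *Bcl2*, chr2:152829697-152829723 on the minus strand for *Bcl2l1* and chr3:95659436-95659462 on the plus strand for *Mcl1*. Those of the effectors are at chr7:45465997-45466023 for *Bax* and chr17:27022531-27022557 for *Bak1*, both on the minus strand. For the BH3-only genes they are at chr2:128147150-128147176 on the plus strand for *Bcl2l11*, chr7:16313773-16313799 on the plus strand for *Bbc3*, chr6:120897289-120897315 on the minus strand for *Bid* and chr19:6950792-6950818 on the plus strand for *Bad*. The deposited values are per gene, so isoforms that keep or lose this region cannot be told apart.

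The libraries held 40.8 M to 42.7 M reads counted on genes. The values are reads and RPKM, the reads per kilobase of gene length scaled to the reads counted on genes in the library. Each of 6 endoderm markers and 6 mesoderm markers had its highest RPKM in the layer it marks, and so did 5 of 6 epiblast markers, with *Fgf5* at 6.64 in endoderm and 6.32 in epiblast. Of 7 trophoblast markers 4 had reads, with a summed RPKM of 27.4 (endoderm), 7.56 (mesoderm) and 2.65 (epiblast), while the defining *Tpbpa*, *Prl2c2* and *Prl3d1* were not listed with a read. Of 5 primitive erythroid markers 3 had reads, with a summed RPKM of 0.905 to 4.44, and *Hba-x* and *Hbb-y* were not listed with a read. Of 5 macrophage markers 4 had reads, with a summed RPKM of 1.01 to 1.93, and *Lyz2* was not listed with a read. Of 5 decidual markers 4 had reads, with a summed RPKM of 1.20 (endoderm), 32.1 (mesoderm) and 4.80 (epiblast). In mesoderm 26.2 of this came from *Hand2*, which embryonic mesoderm also expresses, and *Prl8a2* was not listed with a read. The part of such cells in the values below was not tested.

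A gene met the criteria in a pair of layers when it had RPKM>5 in at least 1 of the 2 libraries, Fold Change>2 and FDR<0.001. The reads were compared by the exact method that Audic and Claverie described, taken as two-sided, which covers only the noise of counting the reads of 2 libraries. Each fold between layers on the deposited RPKM is given with a 95% interval from the Clopper-Pearson method on the reads, which also covers counting error only. *Pmaip1* was highest in epiblast and met the criteria in all 3 pairs. *Bcl2l11* was higher in epiblast than in endoderm, *Bid* was higher in epiblast than in mesoderm, and *Bak1* was higher in mesoderm than in endoderm. The 3 anti-apoptotic genes, *Bax*, *Bbc3* and *Bad* did not meet the criteria in any pair.

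Between endoderm and mesoderm, 2 of the 10 members met the criteria, both higher in mesoderm, against 8.56% of 8867 genes with RPKM>5 in either library. No member was higher in endoderm, where the share of all these genes was 14.4%. Between endoderm and epiblast, 2 members were higher in epiblast (8.94% of 8843 genes) and 0 were higher in endoderm (15.7%). Between mesoderm and epiblast, 2 members were higher in epiblast (5.02% of 8340 genes) and 0 were higher in mesoderm (5.30%). In either direction, 2 of the 10 members thus stand beside 23.0%, 24.6% and 10.3% of all genes for the 3 pairs in this order. Over the 3 pairs 4 of the 10 members met the criteria at least once, beside 31.5% of 9135 genes, and 1 member did so in every pair, beside 1.99% of these genes. The shares of all genes count only genes with RPKM>5, which 8 of the 10 members reached, so that the like counts are 4 of 8 over the 3 pairs and 2 of 8 in each pair. With so few members these counts are a description only. The median log2 ratio of the 10 members was -0.16 for endoderm over mesoderm, -0.31 for endoderm over epiblast and -0.18 for mesoderm over epiblast. For all genes with RPKM>5 in the pair the medians were -0.10, -0.08 and 0.02.

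**Figure D1:**
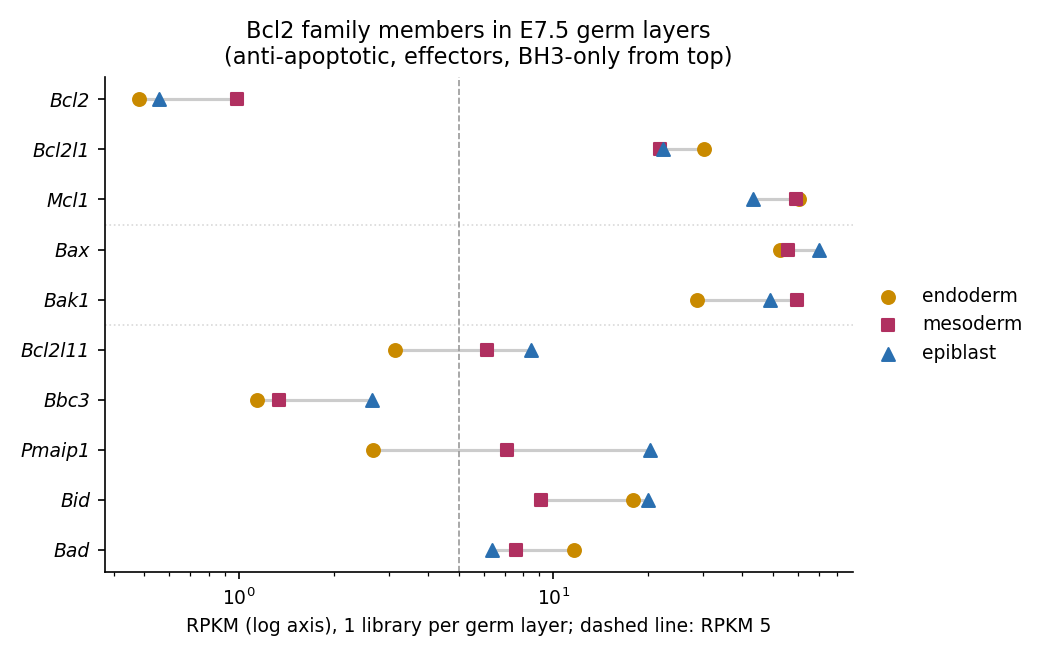
RPKM on a log axis of the 10 members in the endoderm, mesoderm and epiblast libraries, 1 point per library, with the anti-apoptotic genes, the effectors and the BH3-only genes from top to bottom and a dashed line at RPKM 5. *Mcl1* and *Bax* lie at the right, *Bcl2* lies below RPKM 1 in all 3 libraries, and *Pmaip1* has the widest spread, from 2.66 in endoderm to 20.3 in epiblast.

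Among the anti-apoptotic genes, *Mcl1* had the highest level and *Bcl2* the lowest in each layer. *Mcl1* (chromosome 3, 95658788 to 95663176) encodes a short-lived protein that binds BAK1 and several BH3-only proteins. It had 8792 reads (endoderm), 8459 (mesoderm) and 6477 (epiblast), and an RPKM of 60.3, 59.2 and 43.4. The endoderm and mesoderm libraries differed by 1.02-fold (0.989 to 1.05), within counting error. Epiblast was the lowest of the 3, at 1.39-fold (1.35 to 1.44) below endoderm and 1.37-fold (1.32 to 1.41) below mesoderm.

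*Bcl2l1* (chromosome 2, 152780668 to 152831728), whose main product BCL-XL holds BAX and BAK1 in check, had 2970 reads (endoderm), 2110 (mesoderm) and 2267 (epiblast). Its RPKM was 30.1, 21.8 and 22.4. Endoderm stood above the other 2 layers, by 1.38-fold (1.305 to 1.46) over mesoderm and 1.34-fold (1.27 to 1.42) over epiblast, while mesoderm and epiblast lay within counting error of each other.

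*Bcl2* (chromosome 1, 106538178 to 106714274), the founding member of the family, had 144 reads (endoderm), 290 (mesoderm) and 171 (epiblast). The RPKM was 0.480, 0.985 and 0.556, and the reads covered 73.0% to 86.7% of the gene length. Mesoderm was the highest, 2.05-fold (1.68 to 2.53) above endoderm, but *Bcl2* could not meet the criteria because no library reached RPKM>5. By level it stood at the 25.6th percentile of the genes with reads in endoderm, against the 92.0th for *Mcl1*. *Bcl2l2*, another anti-apoptotic gene, had an RPKM of 5.97 (endoderm), 4.46 (mesoderm) and 4.14 (epiblast), and did not meet the criteria in any pair. *Bcl2l10*, *Bcl2a1a*, *Bcl2a1b* and *Bcl2a1d* were listed with a read in none of the 3 libraries. The *Bcl2a1* genes are near-identical copies, for which uniquely mapped reads are uncertain.

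Both effectors were lowest in endoderm, except that *Bax* was lowest in mesoderm when the libraries were scaled by the median of ratios or by TMM. *Bak1* (chromosome 17, 27019810 to 27029009) had 2413 reads (endoderm), 4928 (mesoderm) and 4225 (epiblast), and an RPKM of 28.7, 59.8 and 49.0. Mesoderm was 2.08-fold (1.98 to 2.19) above endoderm and met the criteria, with an interval that holds values below 2. It no longer met them under these same scalings, where the fold was as low as 1.925. Epiblast was 1.71-fold (1.62 to 1.80) above endoderm, and mesoderm was 1.22-fold (1.17 to 1.27) above epiblast.

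*Bax* (chromosome 7, 45461697 to 45466898) had 1909 reads (endoderm), 1985 (mesoderm) and 2596 (epiblast). Its RPKM was 52.7, 55.9 and 70.0. Epiblast was the highest, 1.33-fold (1.25 to 1.41) above endoderm and 1.25-fold (1.18 to 1.33) above mesoderm. Endoderm and mesoderm lay within counting error of each other. *Bok*, a relative of *Bax* and *Bak1* that can also permeabilise membranes, had 83 reads (endoderm), 175 (mesoderm) and 469 (epiblast) and an RPKM of 1.39, 2.99 and 7.67. It met the criteria in both comparisons with epiblast, which was 5.51-fold (4.36 to 7.05) above endoderm and 2.56-fold (2.15 to 3.07) above mesoderm. By the deposited RPKM all 3 effector-type genes were thus lowest in endoderm, beside 48.0% of 9135 genes that had RPKM>5 in a library, with the exception of *Bax* given above.

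Of the BH3-only members, 4 of 5 had their highest RPKM in epiblast. Among the 4 that reached RPKM>5 it was 3, beside 32.6% of the 9135 genes. *Pmaip1* (chromosome 18, 66458533 to 66465565) encodes NOXA, which binds MCL1 and is a target of p53. It had 294 reads (endoderm), 771 (mesoderm) and 2306 (epiblast), and an RPKM of 2.66, 7.11 and 20.3. The 3 libraries were spaced by similar steps. Mesoderm was 2.67-fold (2.33 to 3.07) above endoderm, epiblast was 2.86-fold (2.64 to 3.11) above mesoderm, and epiblast was 7.65-fold (6.77 to 8.67) above endoderm. The step from endoderm to epiblast was the largest ratio of any member in any pair. By level, *Pmaip1* stood at the 42.0th percentile of genes with reads in endoderm and at the 78.0th in epiblast. It met the criteria in each pair under all 4 other scalings.

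*Bcl2l11* (chromosome 2, 128126038 to 128162547) encodes BIM, which binds all anti-apoptotic members and is induced by FOXO factors. It had 656 reads (endoderm), 1263 (mesoderm) and 1826 (epiblast), and an RPKM of 3.12, 6.13 and 8.48, in the same order as *Pmaip1*. Epiblast was 2.72-fold (2.48 to 2.97) above endoderm and met the criteria. Mesoderm was 1.963-fold (1.79 to 2.16) above endoderm, just short of the fold required, and met the criteria after scaling to the same upper quartile.

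*Bbc3* (chromosome 7, 16308393 to 16318205), which encodes the p53 target PUMA, had 94 reads (endoderm), 108 (mesoderm) and 223 (epiblast). With an RPKM of 1.14, 1.34 and 2.64 it did not reach RPKM>5 in any library. Epiblast was 2.31-fold (1.81 to 2.98) above endoderm and 1.98-fold (1.56 to 2.51) above mesoderm, while the 2 lower layers lay within counting error of each other.

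*Bid* (chromosome 6, 120891930 to 120916853) links death receptors to the mitochondria, since its protein is activated when caspase-8 cuts it. It had 1420 reads (endoderm), 710 (mesoderm) and 1634 (epiblast), and an RPKM of 17.9, 9.12 and 20.1. Mesoderm was the low layer here. Epiblast was 2.20-fold (2.01 to 2.41) above mesoderm and met the criteria, whereas endoderm was 1.961-fold (1.79 to 2.15) above mesoderm and did not. That pair met them under 3 of the 4 other scalings, with folds of up to 2.12.

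*Bad* (chromosome 19, 6941861 to 6951899), whose protein is held by 14-3-3 proteins after survival signalling, had the reverse order of *Pmaip1*. It had 704 reads (endoderm), 452 (mesoderm) and 395 (epiblast), and an RPKM of 11.6, 7.62 and 6.37. The endoderm library was 1.83-fold (1.61 to 2.07) above epiblast and 1.53-fold (1.36 to 1.72) above mesoderm, and mesoderm was 1.20-fold (1.04 to 1.37) above epiblast. *Bad* was the 1 BH3-only member that was highest in endoderm, and no pair met the criteria.

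Exons of several members overlap those of other genes, and the sources used here do not state whether strand was used in counting. The share of exon bases involved was 20.5% for *Bad* with *Gpr137* on the opposite strand, 25.5% for *Bak1* with *Ggnbp1* and 17.7% for *Bid* with *Bcl2l13*, both also opposite. *Bax* shares 12.2% with *Gm45808* on its own strand and *Bcl2* 6.09% with *D630008O14Rik*. *Gpr137* had an RPKM of 8.18 (endoderm), 4.95 (mesoderm) and 5.23 (epiblast), so that it too was highest in endoderm. *Ggnbp1* had 15 to 25 reads per library. *Bcl2l13*, itself a *Bcl2*-like gene, had an RPKM of 15.3, 21.9 and 20.4 and so was highest in the layer where *Bid* was lowest. The part of shared reads in these values was not tested. *Pmaip1*, *Bcl2l11*, *Bbc3*, *Bcl2l1* and *Mcl1* overlap no exon of another gene in this annotation.

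**Figure D2:**
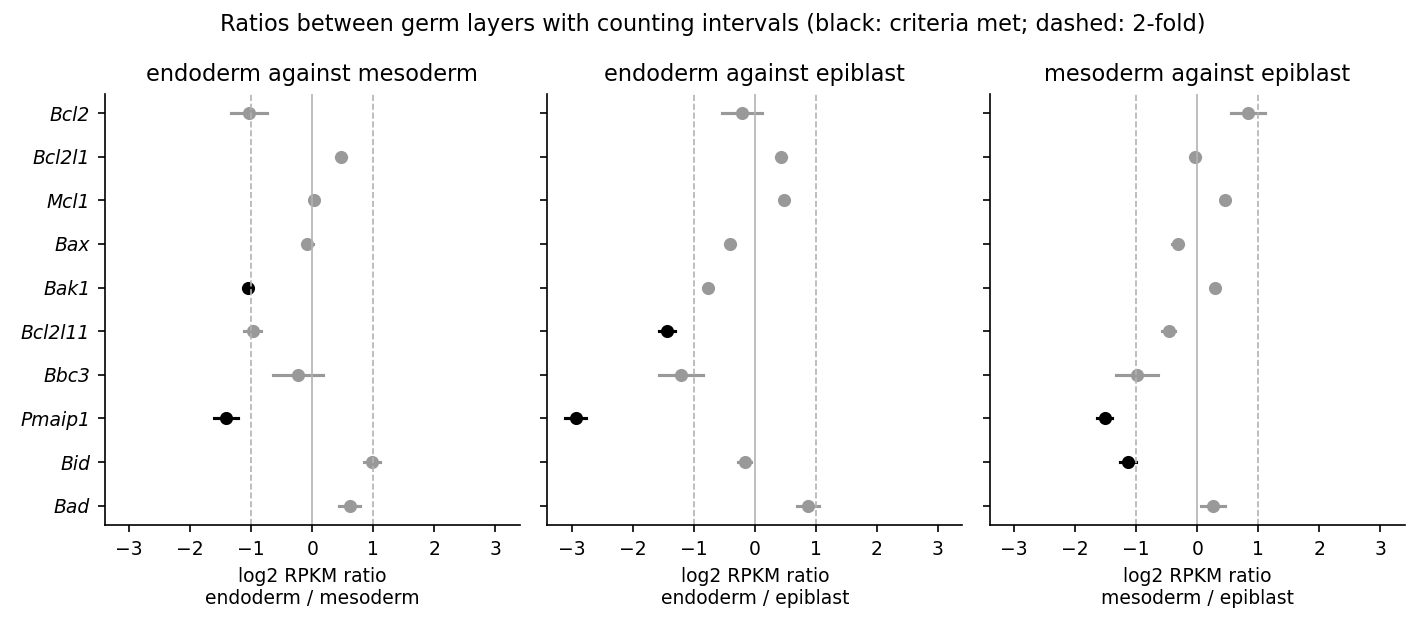
Log2 ratio of the RPKM of each member between 2 germ layers, with the 95% counting interval as a bar, in 3 panels for the 3 pairs. Members that met the criteria are black, the others grey, and dashed lines mark a 2-fold difference. The 6 black points all lie to the left of 0, that is, higher in the second layer named, and *Pmaip1* in epiblast against endoderm lies farthest out at -2.94.

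The 3 other BH3-only genes of the family had their lowest RPKM in mesoderm, but only *Bmf* reached RPKM>5 and could meet the criteria. Of the 9135 genes with RPKM>5 in a library, 21.5% were lowest in mesoderm. *Bmf*, which encodes a BH3-only protein tied to the cytoskeleton and to loss of attachment, had 1659 reads (endoderm), 349 (mesoderm) and 1438 (epiblast), and an RPKM of 8.56, 1.84 and 7.24. It met the criteria in both comparisons with mesoderm, at 4.66-fold (4.15 to 5.25) for endoderm and 3.94-fold (3.50 to 4.44) for epiblast. Mesoderm was the low layer for *Bid* too, but *Bid* was higher in epiblast than in endoderm and *Bmf* the reverse. *Bik* had an RPKM of 1.32 (endoderm), 0.337 (mesoderm) and 0.844 (epiblast). *Hrk* had 36, 10 and 159 reads and did not reach RPKM>1. Of the 7 related genes with a BH3 or *Bcl2*-like region, 5 had RPKM>5 in a library. None of these met the criteria in any pair, beside 31.5% of 9135 genes that did so in at least 1 pair. Their RPKM in endoderm, mesoderm and epiblast was 55.3, 46.8 and 61.6 for *Bnip3*, and 43.5, 69.5 and 77.1 for *Bnip3l*, both known from mitophagy and the response to low oxygen. *Becn1*, a regulator of autophagy, had 22.2, 22.1 and 20.3. *Bcl2l12* had 14.01, 21.02 and 22.3, and 33.4% of its exon bases overlap *Irf3* and *Gm15545*. *Becn1* shares 43.9% of its exon bases with *Cntd1*, which had 35 to 58 reads per library. *Bcl2l14* and *Bcl2l15* had at most 53 reads in a library, did not reach RPKM>5 and so could not meet the criteria.

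Summed by role, the members were balanced differently in the 3 libraries. The anti-apoptotic genes had a summed RPKM of 90.9 (endoderm), 82.0 (mesoderm) and 66.3 (epiblast). The effectors had 81.5, 115.7 and 119.0, the opposite order of layers, with *Bak1* higher in mesoderm than in epiblast and *Bax* the reverse. Mesoderm and epiblast were close, and scaling to equal RPKM totals, which moves mesoderm over epiblast by 0.0559 in log2, turned their order. The BH3-only genes had 36.5, 31.3 and 57.9, with epiblast the highest. As a share of the summed RPKM of the 10 members, the anti-apoptotic genes made up 43.5% (endoderm), 35.8% (mesoderm) and 27.3% (epiblast).

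**Figure D3:**
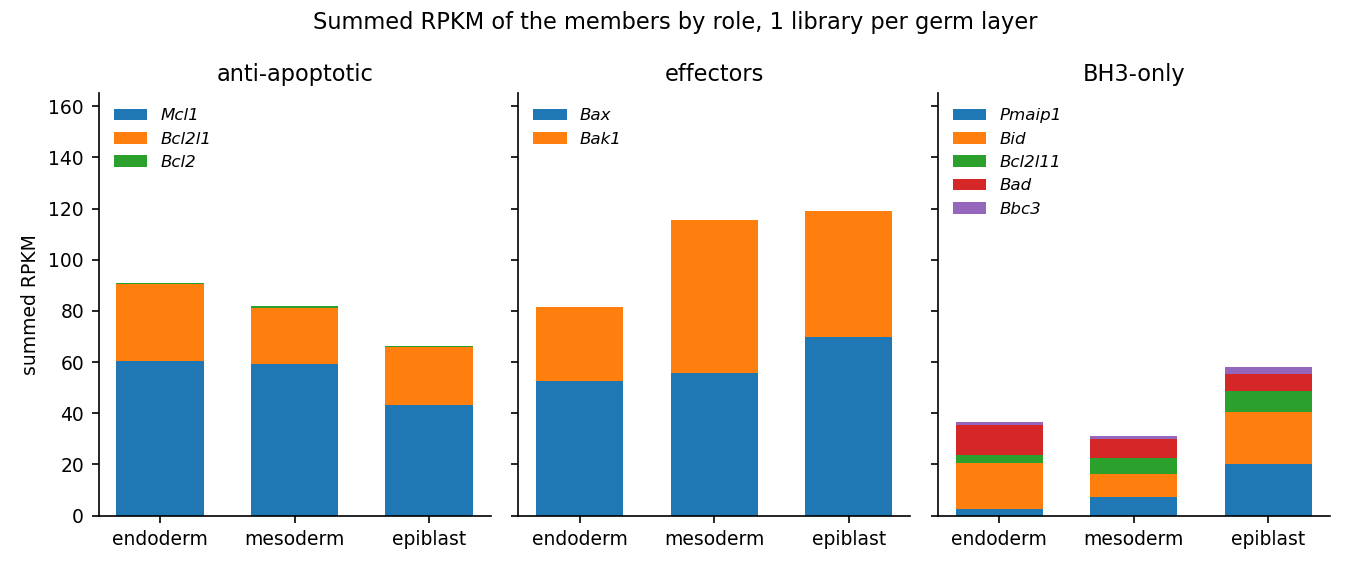
Summed RPKM of the anti-apoptotic, effector and BH3-only members in each germ layer, 1 library per layer, as bars from 0 with each gene as a segment. The anti-apoptotic bars go down from 90.9 in endoderm to 66.3 in epiblast, the effector bars go up from 81.5 to 119.0, and the *Pmaip1* segment grows from 2.66 to 20.3.

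The ratio of the summed RPKM of anti-apoptotic to effector members was 1.12 (1.08 to 1.16) in endoderm, 0.708 (0.686 to 0.731) in mesoderm and 0.557 (0.539 to 0.576) in epiblast, with 95% intervals from the counting error by the delta method. The 3 intervals do not overlap, and the ratio does not depend on how the libraries are scaled. *Mcl1* made up 65.4% to 72.2% of the anti-apoptotic sum, and without it the ratio was 0.375, 0.197 and 0.193, with mesoderm and epiblast then nearly level. The ratio of BH3-only to anti-apoptotic members was 0.401 (0.385 to 0.418) in endoderm, 0.382 (0.366 to 0.399) in mesoderm and 0.874 (0.845 to 0.903) in epiblast. Here the intervals of endoderm and mesoderm overlap, and epiblast stands above both. *Bmf*, which was 4.66-fold higher in endoderm than in mesoderm, is not among these members, and this ratio was not computed with it. Of the 6 single pairs of an anti-apoptotic member and an effector, 4 gave the same order of layers as the first ratio, in part within overlapping intervals. *Mcl1* over *Bak1* was 2.10 (2.01 to 2.20), 0.990 (0.956 to 1.03) and 0.884 (0.8503 to 0.919). *Bcl2l1* over *Bax* was 0.570 (0.538 to 0.604), 0.390 (0.366 to 0.414) and 0.320 (0.303 to 0.339). The other 2 pairs had another order. *Bcl2l1* over *Bak1* was 1.05 (0.992 to 1.10), 0.364 (0.346 to 0.383) and 0.456 (0.434 to 0.480), lowest in mesoderm, and *Bcl2* over *Bax* was 0.00910, 0.0176 and 0.00794, highest in mesoderm. These are ratios of RNA and not of proteins, whose turnover was not measured.

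The BH3-only sum differed in makeup as well as in size. *Bid* made up 49.1% of it in endoderm, 29.1% in mesoderm and 34.7% in epiblast. *Bad* made up 31.9% in endoderm, 24.3% in mesoderm and the least in epiblast. *Pmaip1* went the other way, with 7.30% (endoderm), 22.7% (mesoderm) and 35.1% (epiblast). In epiblast *Pmaip1* and *Bid* were about level, whereas in endoderm *Bid* and *Bad* together exceeded the other 3 genes.

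Around the family, further genes of the pathway were read from lists, whose counts stand beside the 31.5% of all 9135 genes with RPKM>5 that met the criteria in at least 1 pair. In the apoptosome and caspases list, 2 of 6 genes did so, all 6 with RPKM>5 in a library, which is about the share of all genes. *Casp8*, the initiator caspase of death receptors, had an RPKM of 11.3 (endoderm), 1.55 (mesoderm) and 4.60 (epiblast), and was 7.29-fold (6.19 to 8.63) higher in endoderm than in mesoderm and 2.46-fold (2.22 to 2.73) higher than in epiblast. *Casp2* had 4.31, 6.68 and 9.05 with epiblast 2.10-fold (1.91 to 2.32) above endoderm, which met the criteria here but not under 3 of the 4 other scalings. *Cycs*, *Apaf1* and *Casp9*, whose proteins form the apoptosome, and *Casp6* did not meet the criteria in any pair.

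By the deposited RPKM, the order of *Trp53* over the layers was that of *Pmaip1*, *Bcl2l11*, *Bax* and *Bbc3* among the members. Genes of other lists, such as *Diablo* and *Fbxw7*, had the same order, and a link to p53 was not tested. *Trp53*, which encodes p53, had an RPKM of 88.2 (endoderm), 168.3 (mesoderm) and 196.2 (epiblast), with epiblast 2.23-fold (2.16 to 2.29) above endoderm. It was the 1 of 6 genes in the list of p53 and its regulators that met the criteria. Of 14 p53 target genes 11 had RPKM>5 in a library and 5 met the criteria in at least 1 pair, in different directions, beside 31.5% of all genes. *Cdkn1a*, an inhibitor of the cell cycle, had an RPKM of 7.42, 3.67 and 17.2 and met the criteria in all 3 pairs. Epiblast stood 4.69-fold (4.13 to 5.34) above mesoderm and 2.32-fold (2.11 to 2.56) above endoderm, and the 2.02-fold (1.75 to 2.33) difference between endoderm and mesoderm fell short under 1 of the 4 other scalings. *Zmat3* had 2.04, 3.33 and 6.54, with epiblast 3.20-fold (2.93 to 3.50) above endoderm. *Perp*, which also encodes a membrane protein of epithelial junctions, had 15.7, 2.25 and 2.96, and was 6.97-fold (5.95 to 8.21) higher in endoderm than in mesoderm and 5.31-fold (4.62 to 6.13) higher than in epiblast. *Trp53inp1* had 7.04, 1.88 and 3.85 and was 3.74-fold (3.35 to 4.17) higher in endoderm than in mesoderm. *Phlda3*, the fifth and named only because its values were seen, had 2.20, 5.60 and 5.29.

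Of 6 genes of the death receptor arm 5 had RPKM>5 in a library, of which 4 had their highest RPKM in endoderm, beside 37.1% of the 9135 genes, and 1 met the criteria. This was *Tradd*, an adaptor of TNF receptors, with an RPKM of 6.15 (endoderm), 4.19 (mesoderm) and 1.08 (epiblast) and a 5.69-fold (4.35 to 7.54) higher level in endoderm than in epiblast. The summed RPKM of the trophoblast markers, 27.4 in endoderm, was also highest there, through *Plac1* (19.9) and *Esx1* (7.11). The other trophoblast markers with reads, *Elf5* and *Ascl2*, were lowest in endoderm and highest in epiblast. The part of trophoblast cells in these values was not tested. In the list of stress regulators of BH3-only genes, 6 of 7 had RPKM>5 in a library and 3 met the criteria, beside 31.5% of all genes. *Foxo1* had 6.11, 3.85 and 9.89 and was 2.57-fold (2.37 to 2.78) higher in epiblast than in mesoderm. *Foxo3* had 4.197, 9.36 and 8.49, with mesoderm 2.23-fold (2.01 to 2.48) and epiblast 2.02-fold (1.82 to 2.26) above endoderm. *E2f1* had 7.20, 14.7 and 12.5 with mesoderm 2.04-fold (1.87 to 2.23) above endoderm. The difference of *E2f1* and that of *Foxo3* in epiblast fell short under 3 of the 4 other scalings.

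**Figure D4:**
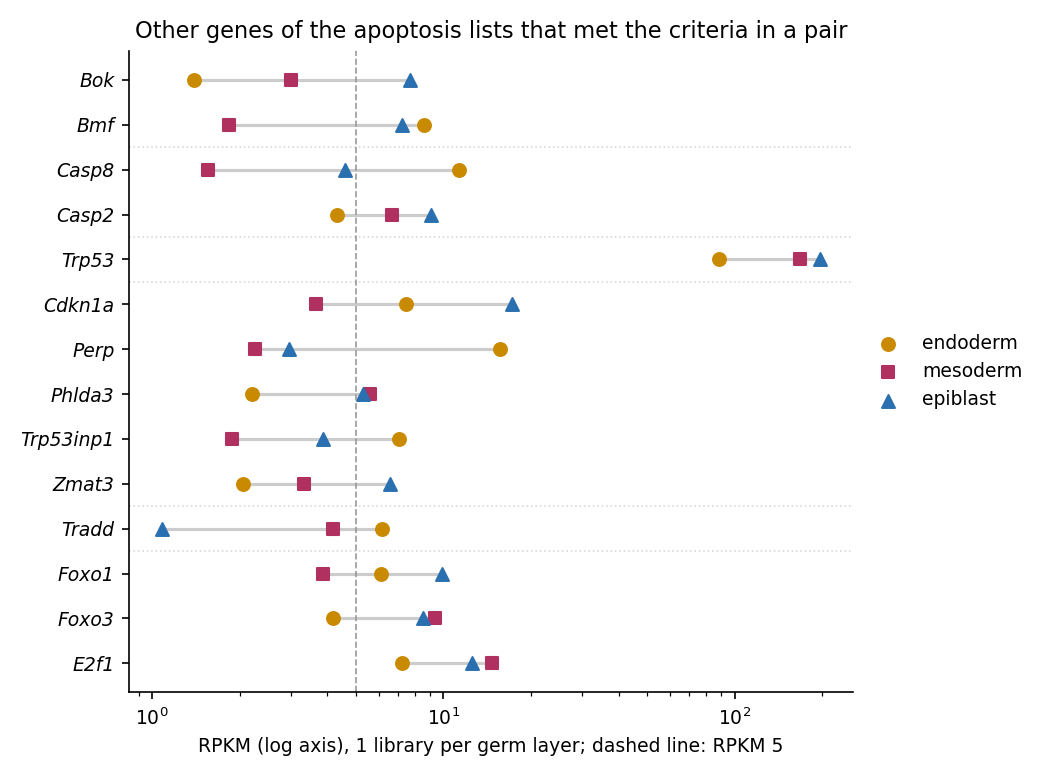
RPKM on a log axis of the 14 other genes that met the criteria in at least 1 pair, 1 point per library, with a dashed line at RPKM 5. From top to bottom they are the other *Bcl2* family genes, caspases, *Trp53*, p53 target genes, *Tradd* and the stress regulators. *Trp53* and *Bok* have their endoderm point at the left, and *Casp8*, *Perp* and *Trp53inp1* have it at the right.

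In 4 lists no gene met the criteria in any pair. In the order below, 7, 4, 4 and 6 of their genes had RPKM>5 in a library. *Birc3*, *Trim17* and *Sfn* did not reach it and so could not meet the criteria. For *Sfn*, endoderm was 5.25-fold (3.94 to 7.12) and epiblast 5.18-fold (3.88 to 7.01) above mesoderm. Among 7 released mitochondrial proteins and channels, the highest was *Vdac1*, a channel of the outer mitochondrial membrane, with an RPKM of 250.3 (endoderm), 188.6 (mesoderm) and 189.2 (epiblast). Among 5 inhibitor of apoptosis proteins, the highest was *Birc5*, which also acts in cell division, with 36.0, 39.9 and 33.6. Among 5 genes of MCL1 protein turnover, the highest was *Huwe1*, a ubiquitin ligase, with 57.7, 60.4 and 59.8. Among 7 genes of 14-3-3 proteins, which bind phosphorylated BAD, the highest was *Ywhae*, with 637.6, 851.6 and 838.8.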

How the data were processed

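RNA of the endoderm, mesoderm and epiblast was sequenced from paired ends in 1 library each. After clearing the reads of adapters, the authors deposited, per gene, a count of uniquely mapped reads without normalization, the gene length, the coverage as a percent of that length, and the RPKM. Per the labels, the processing notes name TopHat and the builds mm10 and mm9. The aligner, annotation and counting program of the gene table are not given in the sources used here. Totals of 40.8 M to 42.7 M reads limit precision, and genes without a read are not listed.

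The criteria were those of the paper, an RPKM above 5, a fold above 2 and an FDR below 0.001, with Benjamini-Hochberg adjustment over all genes with a read in either library. Folds used the deposited RPKM without a pseudocount. The quasi-likelihood test of edgeR needs replicates and was not fitted. Its exact test, run with a biological coefficient of variation set by hand, was an alternative, beside other thresholds, scalings and a pseudocount of 1. The calling steps were checked on simulated libraries. The members and lists were chosen with earlier results of these data known. All members and other family genes were named, and from each other list the up to 4 genes with the largest fold among those that met the criteria, or the gene with the highest RPKM. Of 89 listed symbols 85 matched the tables. Positions and coding sequences came from GENCODE M21. Tool versions were edgeR 4.0.16 in R 4.3.3, and pandas 2.3.3 and SciPy 1.17.1 in Python 3.11.15. Splicing was not analysed here, and some genes of the pathway are not reported here.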

Additional observations from a re-analysis of the deposited data

How the results depend on the processing

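With 1 library per germ layer, none of these values has a replicate check. No paired analysis was possible because each layer has 1 library. Under the 14 alternatives, 20 of the 84 alternative values of the 6 ratios of members that met the criteria no longer met them. That 0 of the 6 turned round says little. Other thresholds and tests leave the ratio as it is, a pseudocount cannot reverse it, and the scalings moved it too little. The number of members called was 2 in each pair. With RPKM>10 it was 1 between endoderm and mesoderm and 1 between endoderm and epiblast. With Fold Change>1.5 it was 5 and 4 in these pairs. Of all 8867 genes with RPKM>5 in the first of these pairs, 1932 were then higher in endoderm and 1607 in mesoderm. Of 8843 genes in the second, 2144 were higher in endoderm and 1776 in epiblast. With Fold Change>4 the number of members was 0, 1 (*Pmaip1*) and 0 in the 3 pairs. In the exact test of edgeR with a coefficient of variation set to 0.2 it was 0, 1 (*Pmaip1*) and 0, and at 0.4 it was 0 in every pair. Over all genes, the exact test at 0.2 left 822 genes higher in endoderm and 377 in mesoderm, 857 in endoderm and 378 in epiblast, and 232 in mesoderm and 211 in epiblast, against 1279 and 759, 1385 and 791, and 442 and 419 by the criteria. Other scalings moved the log2 ratios by -0.13 to 0.11. With them the number of members between endoderm and mesoderm was 2 or 3, but *Bid* took the place of *Bak1* under the median of ratios and TMM. The directions of *Mcl1* and *Bax* between endoderm and mesoderm and of *Bcl2l1* between mesoderm and epiblast turned under 1 or 2 scalings. Of 22 calls among the other lists, 18 were kept under all 4 scalings, 10 with the exact test at 0.2 and 0 at 0.4.

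The ratio of anti-apoptotic to effector members in endoderm, mesoderm and epiblast was 0.375, 0.197 and 0.193 without *Mcl1*. On reads in place of RPKM, which favours long genes, it was 2.76, 1.57 and 1.31. With *Bcl2l2* and *Bok* added it was 1.17 in endoderm.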
